A study of Rattus norvegicus with 36 samples.

Results

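Heat shock proteins and molecular chaperones were followed across whole hearts of 36 male Wistar Kyoto rats, 1 array per rat, by probes whose single gene symbol belongs to the Hsp70, Hsp90, small heat shock protein, J-domain (Dnaja, Dnajb and Dnajc), BAG and chaperonin families. The array carried 78 such probes for 76 genes, and 64 probes for 64 genes were kept because they had a detection score of at least 0.95 on at least 7 arrays. These 64 members stand among 10956 probes kept of 22523 on the array. The rule took no account of any difference between groups. The families kept were 8 Hsp70 and Hsp110 proteins, 2 Hsp90 proteins, 7 small heat shock proteins, the 2 mitochondrial chaperonins, 6 subunits of the cytosolic chaperonin CCT, 4, 8 and 20 J-domain proteins of classes A, B and C, and 5 BAG proteins. Hspbap1 and Hspbp1, which bind heat shock proteins, came in through the Hspb prefix and make up the remaining 2.

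The rats were Control offspring, born to sham-operated mothers. Sedentary rats were killed at 9 weeks (7 rats) or 24 weeks of age (7 rats), early exercise rats ran on a treadmill from week 5 to week 9 and were killed at 9 weeks (7 rats) or 24 weeks (8 rats), and later exercise rats ran from week 20 to week 24 and were killed at 24 weeks (7 rats). The paper states that early exercise rats of 9 weeks and later exercise rats were killed some days after their last run. Early exercise rats of 24 weeks had not trained since week 9. No transgene, deletion or drug distinguished the groups, and the labels do not give the litter. RNA came from frozen whole heart, in which fewer cells of a type and less RNA per cell cannot be told apart.

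Chaperones hold unfolded proteins, fold them or pass them on for destruction. Hsp70 proteins bind and release their clients in a cycle driven by ATP, in which J-domain proteins deliver clients and BAG and Hsp110 proteins release the nucleotide. Small heat shock proteins bind unfolding proteins without ATP and are abundant in heart muscle, where they are known to guard the contractile apparatus. Each compartment has a set of its own: Hspa9 with the Hspd1 and Hspe1 chaperonin in mitochondria, and Hspa5 with Hsp90b1 in the endoplasmic reticulum.

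All values are normalized signals on the log2 scale, so that 1 unit is a doubling, and they are compared between rats for the same probe only. The sets of rats were compared with limma in a model of the 5 groups, with p adjusted by Benjamini-Hochberg across the 10956 probes, and a member was said to rise or fall at an adjusted p below 0.05. Of the 64 members, 54 were detected on all 36 arrays. Just inside the limit stood Dnajc8, detected on 18 arrays, and just outside stood Hsp90ab1, on 6. The stress-inducible Hspa1b was detected on 0 of 36 arrays, as was the second probe of Hsp90ab1, and no probe with the single symbol Hspa8 or Hspa1a was used here. Cardiomyocyte markers were strong on every array (7 of 8 kept, log2 of the summed level 16.44 to 16.97). Before normalization the later exercise arrays were dimmer, with a mean raw signal of 315 to 709 against 715 to 1307 in sedentary rats of 24 weeks. Probes of very long transcripts, in which degraded RNA is known to lose signal first, also differed: 10 of 18 were lower in later exercise than in sedentary rats and 0 were higher. A length score, the mean log2 signal of these probes minus that of 56 ribosomal protein probes, ran from -4.71 to -3.90 in later exercise rats and from -3.96 to -3.31 in sedentary rats of 24 weeks. No RNA quality value was used here, and whether the score reflects the state of the RNA or the expression of these genes was not tested.

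With age, a few chaperones rose and none fell. In sedentary rats 4 members rose between 9 and 24 weeks and 0 fell, where 3.48% of all probes rose and 3.09% fell. In early exercise rats, which share no animal with the sedentary ones, 3 members rose and 0 fell, against 4.35% and 3.68% of all probes. Hspa4l, Hspb1 and Dnajc5b rose in both, which is 75% of the sedentary calls and 100% of the early exercise calls. The same shares over all probes were not computed, so the recurrence is not set apart from that of other probes.

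Hspa4l, an Hsp110-type protein that releases nucleotide from Hsp70, had the largest age difference among the members in sedentary rats. Its log2 signal was 7.96 to 8.34 (median 8.16) in sedentary rats of 9 weeks and 8.57 to 9.24 (median 9.14) in those of 24 weeks. Every older rat lay above every younger one. The difference was 0.83 ± 0.12 (standard error, SE), 1.78-fold (limma, adjusted p = 5.61e-06). Early exercise rats went from 7.87 to 8.23 (median 8.06) at 9 weeks to 8.40 to 9.11 (median 8.69) at 24 weeks. Again the ages did not overlap, and the difference was 0.66 ± 0.11 (SE), 1.58-fold (limma, adjusted p = 0.000116).

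Hspb1, the small heat shock protein known as Hsp25 or Hsp27 that binds actin and unfolding proteins, was 12.74 to 13.09 (median 13.02) in sedentary rats of 9 weeks and 13.07 to 13.61 (median 13.34) in those of 24 weeks. The lowest older rat, at 13.07, lay just under the highest younger one, at 13.09. The difference was 0.39 ± 0.09 (SE), 1.31-fold (limma, adjusted p = 0.00421). In early exercise rats the probe was 12.75 to 13.02 (median 12.85) at 9 weeks and 13.21 to 13.68 (median 13.42) at 24 weeks. Here the ages stood apart, with a difference of 0.58 ± 0.09 (SE), 1.49-fold (limma, adjusted p = 1.38e-05).

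Bag3, which joins Hsp70 to small heat shock proteins and guides damaged muscle protein to autophagy, rose in sedentary rats from 13.07 to 13.48 (median 13.31) to 13.49 to 13.84 (median 13.62). The ages did not overlap, and the difference was 0.31 ± 0.07 (SE), 1.24-fold (limma, adjusted p = 0.00572). In early exercise rats the ages overlapped, with 13.21 to 13.44 (median 13.34) at 9 weeks and 13.34 to 13.70 (median 13.51) at 24 weeks. That difference was 0.17 ± 0.07 (SE) and did not pass (limma, adjusted p = 0.148). Whether training before week 9 altered the age difference was tested as an interaction, given below, which Bag3 did not pass either.

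Dnajc5b, a cysteine string protein known mainly from testis, was faint, and its probe was detected on 33 of 36 arrays. It was 5.64 to 6.16 (median 5.98) in sedentary rats of 9 weeks and 6.39 to 6.90 (median 6.46) in those of 24 weeks. The groups did not overlap, and the difference was 0.59 ± 0.13 (SE), 1.51-fold (limma, adjusted p = 0.00289). In early exercise rats it was 5.63 to 6.51 (median 5.93) and then 6.49 to 7.18 (median 6.66). The highest young rat, at 6.51, lay above the lowest of the older ones, and the difference was 0.75 ± 0.13 (SE), 1.69-fold (limma, adjusted p = 8.76e-05).

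**Figure D1:**
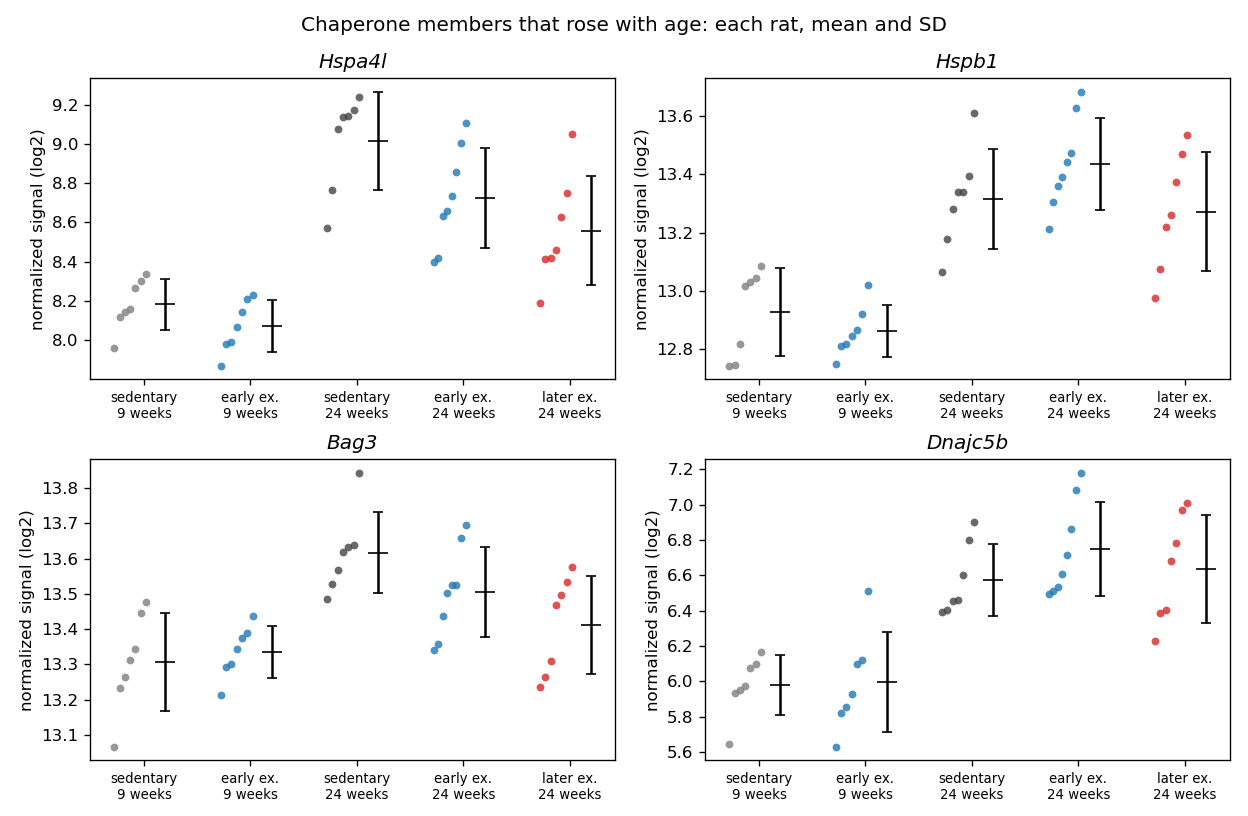
Normalized signal (log2, vertical axis of each panel) of Hspa4l, Hspb1, Bag3 and Dnajc5b in each rat of the 5 groups, with points sorted by value and the mean and SD as a bar. The means at 24 weeks lie above those at 9 weeks, but single rats overlap for Hspb1 in sedentary rats and for Bag3 and Dnajc5b in early exercise rats, whereas for Hspa4l no rat of 9 weeks exceeds 8.34.

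In all, the groups of 9 and 24 weeks did not overlap for 4 members in sedentary rats (Hspa4l, Bag3, Dnajc5b and Dnajc15, all higher at 24 weeks), against 1.2% of all probes, and for 2 in early exercise rats (Hspa4l and Hspb1), against 1.21%. Dnajc15, a mitochondrial J-domain protein, was 8.30 to 8.48 at 9 weeks and 8.56 to 8.85 at 24 weeks in sedentary rats, 0.30 ± 0.10 (SE), which did not pass (limma, adjusted p = 0.0549). Hspb8, the small heat shock protein that works with Bag3, had age differences of 0.33 ± 0.12 (SE) in sedentary and 0.30 ± 0.11 (SE) in early exercise rats, and neither passed (limma, adjusted p = 0.0768 and 0.0900). The other small heat shock proteins had differences from -0.15 to 0.22 in sedentary rats and from -0.11 to 0.28 in early exercise rats, and none passed. Over the 64 members the median age difference was 0.05 in sedentary and 0.06 in early exercise rats, where that of all probes was 0.00 and -0.01, and 45 members had the same sign in both.

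**Figure D2:**
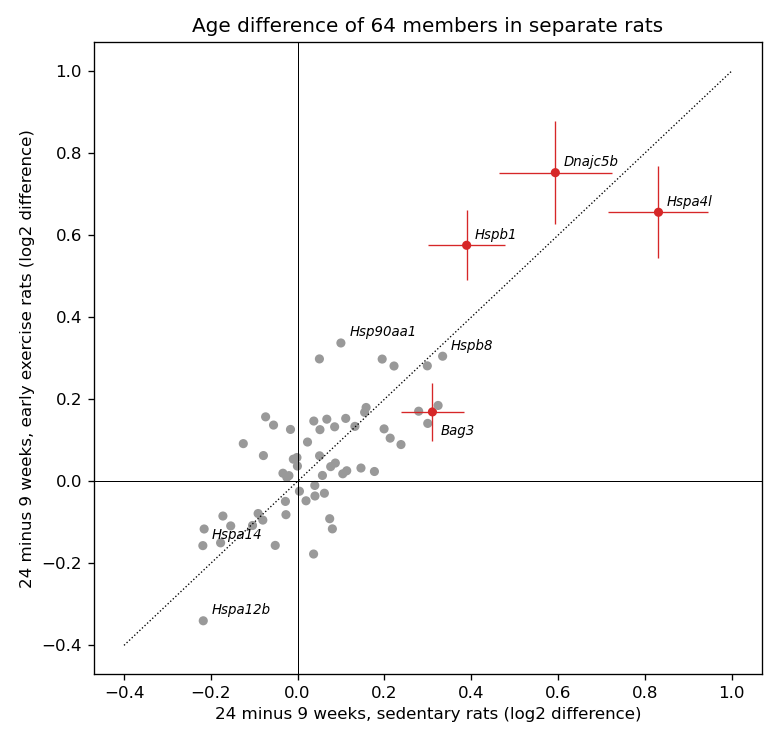
Difference in normalized signal between 24 and 9 weeks (log2) of the 64 members, in sedentary rats (horizontal axis) and early exercise rats (vertical axis), with the line of equal differences dotted. Members past an adjusted p of 0.05 in either comparison are red with 1 SE as bars, and Hspa4l, Hspb1 and Dnajc5b have the 3 largest differences on both axes.

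The 4 members called in sedentary rats kept their sign on each of the 3 chips, as 30 of all 64 members did, but they were called on these same arrays. For Hspa4l the difference in sedentary rats was 0.815, 0.725 and 1.01 on chips 1, 2 and 3, and for Bag3 it was 0.168, 0.303 and 0.466. Summed fibroblast markers (7 of 7 kept) were lower at 24 weeks, 15.19 to 15.68 against 15.62 to 16.09 in sedentary rats, and atrial markers (2 of 4 kept) ran from 14.45 to 15.24 against 13.79 to 14.89. Endothelial markers (4 of 6 kept) were at 12.82 to 13.07 against 13.03 to 13.26. In early exercise rats of 24 against 9 weeks, fibroblast markers were at 15.11 to 15.74 against 15.47 to 15.77, and the ranges did not overlap for atrial markers (14.76 to 15.17 against 13.65 to 14.40) or endothelial markers (12.61 to 13.10 against 13.13 to 13.38). The part of these cell types in the age differences was not tested.

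Bag3 and Hspb1 are textbook targets of the heat shock factor, whose element is built from units of GAA and TTC in alternating direction. Their promoters in RefSeq (build GRCr8) are shown around the paired units GAANNTTC and TTCNNGAA, where N is any base, with the matches in capitals. The Bag3 stretch lies at chr1:192533298-192533365 on the plus strand and the Hspb1 stretch at chr12:26432373-26432460 on the minus strand, both before the gene start.
Bag3: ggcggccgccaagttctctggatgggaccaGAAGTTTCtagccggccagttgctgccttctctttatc
Hspb1: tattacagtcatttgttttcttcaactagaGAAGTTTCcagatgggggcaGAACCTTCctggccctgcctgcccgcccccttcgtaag
Both hold the same 8 bases, at -132 to -125 from the start in Bag3 and -129 to -122 in Hspb1, and Hspb1 holds a second pair at -109 to -102. Promoters (250 bases before to 50 after the start) were matched for 54 of the 64 members. A pair of units stood in 16 of these 54 (29.6%) and in 15.9% of all 33469 promoters, and because a pair reads the same on either strand no separate search of the other strand was needed. In Hspa4l the only pair lies after the gene start, at bases 38 to 45, and Dnajc5b was not among the members with a matched promoter. Hspe1, Hspd1, Dnaja1 and Cct4, the members with 3 alternating units, did not pass with age in sedentary rats. Their differences were -0.020, 0.057, -0.00048 and -0.0015. Whether the element bears on the age differences was not tested. A match describes the letters only, and occupancy was not measured.

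Regulators and partners of the chaperones were read from a list of 70 genes, of which 51 had a kept probe (55 probes). In sedentary rats 3 of the 55 probes rose with age and 0 fell, where 3.48% of all probes rose and 3.09% fell. In early exercise rats 5 rose and 0 fell, against 4.35% and 3.68% of all probes. Fkbp5, an Hsp90 co-chaperone of the glucocorticoid receptor whose gene is induced by glucocorticoids, had the largest difference, 1.33 ± 0.15 (SE) or 2.51-fold in sedentary rats (limma, adjusted p = 1.21e-07) and 1.21 ± 0.15 (SE) or 2.31-fold in early exercise rats (limma, adjusted p = 4.59e-07). Hsf4, a heat shock transcription factor known from the lens, rose 1.48-fold in sedentary and 1.44-fold in early exercise rats. Sqstm1, an autophagy receptor that binds ubiquitin, rose 1.31-fold in both. Serpinh1, the collagen chaperone of the endoplasmic reticulum, and Pih1d1, part of a complex that works with Hsp90, rose 1.555-fold and 1.298-fold in early exercise rats, and the differences in sedentary rats did not pass.

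Later exercise came with differences in both directions. At 24 weeks, 4 members were higher in later exercise than in sedentary rats and 7 were lower, where 4.59% of all probes were higher and 7.79% lower. Of the 64 members 42 lay below 0, with a median difference of -0.05, against 5687 of 10956 probes and a median of -0.01. Scaling the arrays to a common median, in place of quantile normalization, put the median of all probes at 0.18 and gave 3585 probes higher and 890 lower, where 503 and 853 were called otherwise. The median of the members turned to 0.0155 under that scaling and to 0.0436 with the length score as a covariate, where that of all probes was 0.000933. The members called were spread over mitochondria, the endoplasmic reticulum, the cytosol and the nucleus. For 0 of the 64 members did the 7 trained and 7 sedentary rats separate fully, where 0.338% of all probes were higher and 1.1% lower without overlap.

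**Figure D3:**
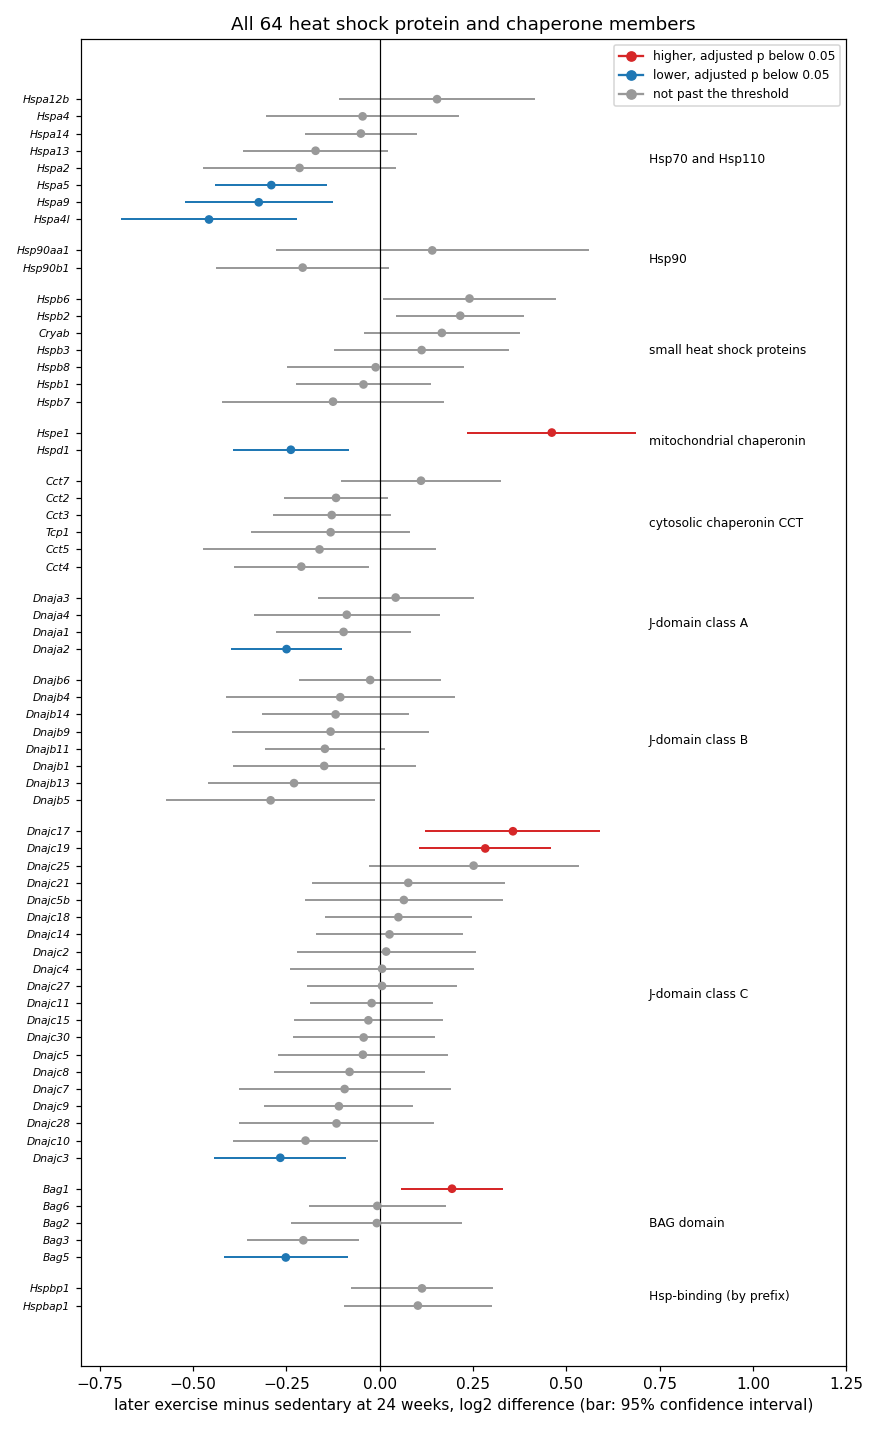
Difference in normalized signal between later exercise and sedentary rats of 24 weeks (log2, horizontal axis) for each of the 64 members, grouped by family, with the 95% confidence interval as a bar. The 4 members in red were higher and the 7 in blue lower at an adjusted p below 0.05, and Hspe1 and Hspd1, partners in the mitochondrial chaperonin, stand on opposite sides of 0. With arrays scaled to a common median both lay above 0, where the median of all probes was 0.18 and Hspd1 lay at 0.0682.

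The mitochondrial chaperones differed in both directions, although with arrays scaled to a common median 2 were higher and 0 lower. Hspe1 is the Hsp10 lid that closes the folding chamber formed by Hspd1, or Hsp60. Hspe1 was 10.18 to 10.80 (median 10.32) in sedentary rats and 10.56 to 11.25 (median 10.77) in later exercise rats. Most later exercise rats lay above most sedentary ones, with 2 sedentary rats, at 10.65 and 10.80, inside the range of the trained rats. The difference was 0.46 ± 0.11 (SE), 1.38-fold (95% confidence interval 0.24 to 0.68 on the log2 scale, limma, adjusted p = 0.00527). Hspd1 ran from 13.69 up to 14 (median 13.90) in sedentary rats and from 13.46 to 13.84 (median 13.71) in later exercise rats. Its difference was -0.24 ± 0.08 (SE), 0.848-fold (limma, adjusted p = 0.0323), but it lay at 0.0682, below the median of all probes, with arrays scaled to a common median, and at -0.0679 with the length score as a covariate.

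Hspa9, the mitochondrial Hsp70 that pulls proteins through the inner membrane, ran from 13.49 to 14.08 (median 13.71) without exercise and from 13.09 to 13.61 (median 13.55) after later exercise. The groups overlapped only below 13.61, where 1 sedentary rat lay. The difference was -0.32 ± 0.10 (SE), 0.799-fold (limma, adjusted p = 0.0228), and it was 0.0238 with the length score as a covariate and -0.051 with arrays scaled to a common median. Dnajc19, a J-domain protein of the inner membrane import motor whose loss in humans causes dilated cardiomyopathy, went the other way, from 10.89 to 11.34 (median 11.15) without exercise up to 11.20 to 11.79 (median 11.32). Its difference was 0.28 ± 0.09 (SE), 1.22-fold (limma, adjusted p = 0.0261), and 0.0594 with the length score as a covariate (adjusted p = 0.789). Of 8 mitochondrial members, chosen for this grouping after the values were seen, 2 were higher, 2 lower and 4 did not pass, with a median of -0.03.

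The early exercise rats showed values on the same side for these 4 genes without passing the test. At 9 weeks, when 0 of 64 members rose and 0 fell and 0% of all probes did so in either direction, Hspe1 differed from sedentary rats by 0.27 ± 0.11 (SE) and Dnajc19 by 0.23 ± 0.09 (SE). Hspa9 and Hspd1 lay at -0.21 ± 0.10 and -0.13 ± 0.08 (SE). At 24 weeks, long after that training had ended, the same differences were 0.31, 0.29, -0.29 and -0.17, in rats not used at 9 weeks. Again 0 members and 0% of all probes passed in each direction, although 8 members had an unadjusted p below 0.05, as had 5 at 9 weeks, against 1139 and 868 of all 10956 probes. The lowest adjusted p of a member was 0.156 at 24 weeks, for Dnajc19, and 0.514 at 9 weeks, also for Dnajc19. Early exercise and later exercise rats of 24 weeks were compared with the same 7 sedentary rats. The length score was also lower after early exercise at 9 weeks, -4.22 to -3.81 against -3.94 to -3.54 in sedentary rats, and with it as a covariate Hspa9 lay at 0.0121, Dnajc19 at 0.0857 and Hspe1 at 0.18 at that age. At 24 weeks it ran from -4.22 to -3.84 in early exercise and from -3.96 to -3.31 in sedentary rats, and with it as a covariate Hspa9 lay at -0.0245, Dnajc19 at 0.12 and Hspe1 at 0.20.

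**Figure D4:**
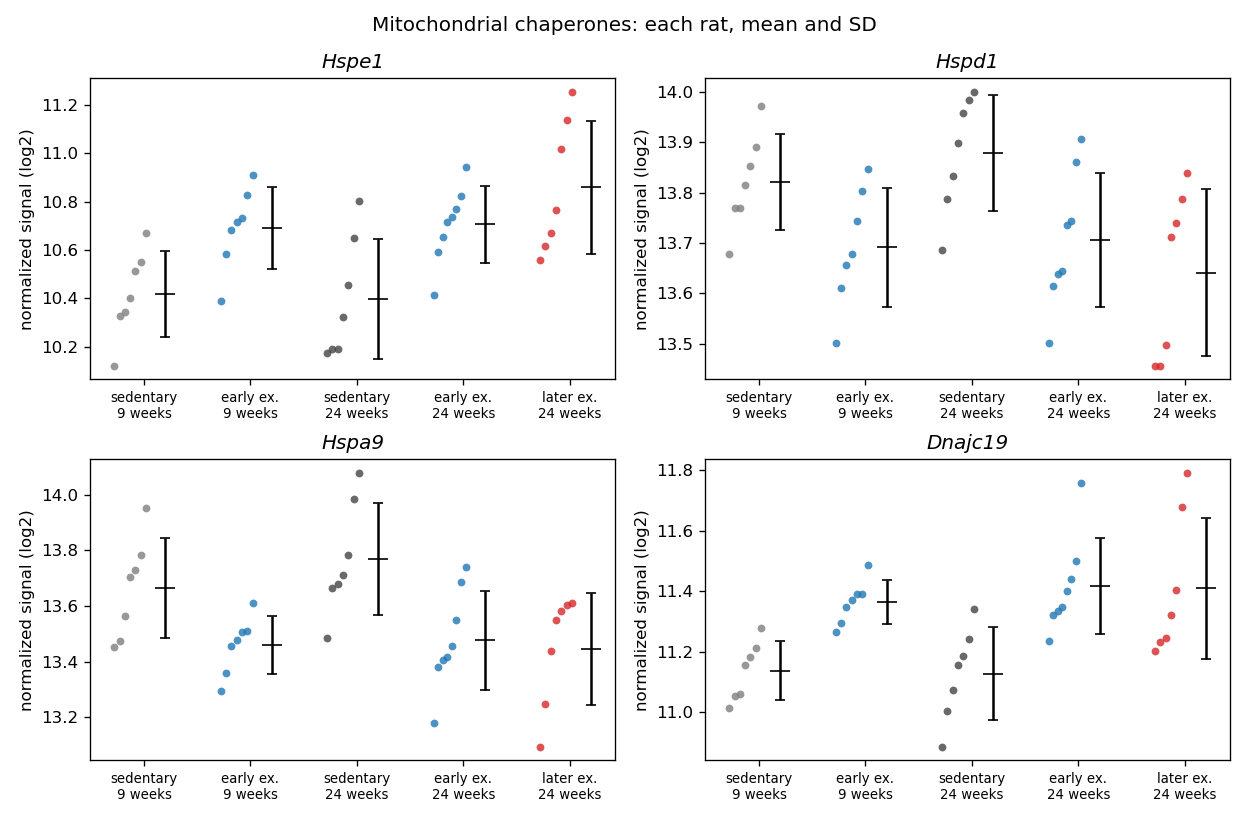
Normalized signal (log2, vertical axis) of Hspe1, Hspd1, Hspa9 and Dnajc19 in each rat of the 5 groups, with the mean and SD as a bar. In later exercise rats Hspe1 and Dnajc19 lie higher and Hspd1 and Hspa9 lower than in sedentary rats of 24 weeks, and the early exercise means lie on the same side of their sedentary controls at both ages. In later exercise rats Hspd1 lay at 0.0682 with arrays scaled to a common median, where the median of all probes was 0.18. Hspa9 lay at 0.0238 there with the length score as a covariate.

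Hspe1 and Hspd1 are read in opposite directions from neighbouring starts. In RefSeq (GRCr8) Hspe1 lies on the plus strand at chr9:64084327-64087415 and Hspd1 on the minus strand at chr9:64073610-64084332, and the start sites of the promoter table stand 290 bases apart. The stretch at chr9:64084232-64084309, on the plus strand, lies before the start of Hspe1 and inside the annotated bounds of Hspd1. The capitals mark a run of heat shock units at -65 to -48 from the Hspe1 start.
Hspe1: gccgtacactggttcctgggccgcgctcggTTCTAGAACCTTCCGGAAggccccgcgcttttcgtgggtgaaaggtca
The same run falls within the promoter of Hspd1, read on the other strand at -242 to -225 from its start. An element of 3 alternating units stood in 4 of 54 member promoters (7.41%: Hspe1, Hspd1, Dnaja1 and Cct4) and in 0.798% of all promoters. The windows of Hspe1 and Hspd1 share 211 bases, so the same run was counted for both genes, here and among the pairs of units above. Dnaja1, a cytosolic partner of Hsp70, and Cct4, a CCT subunit, differed between later exercise and sedentary rats by -0.10 ± 0.09 and -0.21 ± 0.09 (SE), and neither passed (limma, adjusted p = 0.52 and 0.116).

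The 7 chaperones of the endoplasmic reticulum listed here all lay below 0 in later exercise against sedentary rats. They were listed after the values were seen and are not every member of the compartment, so their shared direction was not a test. Hspa5, the Hsp70 of that compartment also called BiP, ran from 13.33 to 13.66 (median 13.52) without exercise and from 12.998 to 13.39 (median 13.22) after later exercise. Only the lowest sedentary rat fell within the later exercise range. The difference was -0.29 ± 0.07 (SE), 0.818-fold (limma, adjusted p = 0.00735), with -0.28, -0.31 and -0.27 on the 3 chips. It was -0.0667 with arrays scaled to a common median (limma, adjusted p = 0.622) and -0.12 with the length score as a covariate (adjusted p = 0.471). Dnajc3, a J-domain partner of Hspa5 that also restrains the stress kinase PERK, ran from 10.29 to 10.63 (median 10.44) without exercise and from 9.89 to 10.39 (median 10.21) after later exercise. The groups overlapped between 10.29 and 10.39, and the difference was -0.27 ± 0.09 (SE), 0.832-fold (limma, adjusted p = 0.0358).

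Hspa5 was also the single member that separated later from early exercise. Early exercise rats of 24 weeks were at 13.41 to 13.78 (median 13.52), above all 7 later exercise rats. The difference was -0.31 ± 0.07 (SE), 0.804-fold (limma, adjusted p = 0.0289). So 1 member was lower and 0 were higher, where 0.374% of all probes were lower and 0.0639% higher, and the groups did not overlap for 0.0821% of all probes in that direction. This call was lost with arrays scaled to a common median (limma, -0.21, adjusted p = 0.179), with only those groups in the fit, with array brightness as a covariate and without later exercise rats 3 and 5.

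Hsp90b1, the Hsp90 of the endoplasmic reticulum, was 11.27 to 11.84 in sedentary and 11.14 to 11.82 in later exercise rats, -0.21 ± 0.11 (SE), and did not pass (limma, adjusted p = 0.248). Its highest trained rat, at 11.82, stood nearly as high as any sedentary rat. Hspa13, Dnajb9, Dnajb11 and Dnajc10, further chaperones of this compartment, had differences from -0.20 to -0.13 and none passed. All 7 members listed for the compartment, a grouping made after the values were seen, lay below 0 (median -0.20), also with arrays scaled to a common median, whereas 5 of 7 did with the length score as a covariate. The list does not hold every member of the compartment. J-domain members of its membrane outside the list lay on both sides of 0 and none passed. Dnajc25 was at 0.25 ± 0.14 (SE), Dnajc18 at 0.05, Dnajc14 at 0.03 and Dnajb14 at -0.12.

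**Figure D5:**
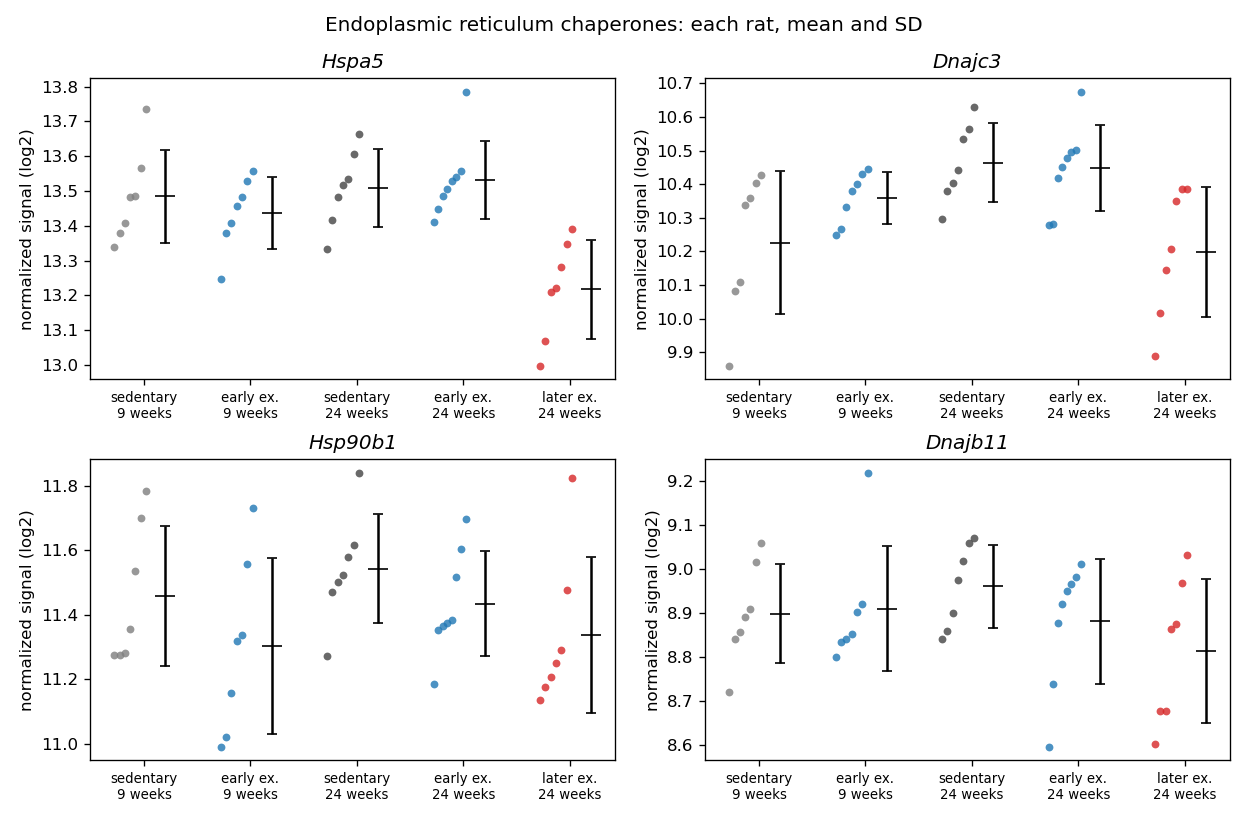
Normalized signal (log2, vertical axis) of Hspa5, Dnajc3, Hsp90b1 and Dnajb11 in each rat of the 5 groups, with the mean and SD as a bar. Later exercise rats have the lowest mean at 24 weeks for each gene, and for Hspa5 none of them exceeds 13.39 while early exercise rats of 24 weeks begin at 13.41.

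The endoplasmic reticulum stress element, a CCAAT box followed after 9 bases by CCACG, is the site through which these genes are known to answer unfolded protein. Searched on both strands, it stood in 3 of 54 member promoters (5.56%) and in 0.0657% of all promoters, and the 3 were Hspa5, Dnajc3 and Hsp90b1. They are shown with the element in capitals, at chr3:38452943-38453015 (plus strand), chr15:102432504-102432582 (plus strand) and chr7:23012317-23012499 (minus strand), all before the gene start.
Hspa5: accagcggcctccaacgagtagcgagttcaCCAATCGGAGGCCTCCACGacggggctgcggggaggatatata
Dnajc3: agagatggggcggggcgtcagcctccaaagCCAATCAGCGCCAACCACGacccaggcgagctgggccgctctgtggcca
Hsp90b1: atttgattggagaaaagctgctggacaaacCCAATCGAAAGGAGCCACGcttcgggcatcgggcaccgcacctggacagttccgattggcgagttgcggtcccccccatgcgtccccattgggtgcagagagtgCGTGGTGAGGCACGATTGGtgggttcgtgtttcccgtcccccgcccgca
Hsp90b1 carries the element on both strands, and of these 3 genes Hspa5 and Dnajc3 fell in later exercise rats.

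In the cytosol, Hspa4l was lower in later exercise rats, from 8.19 to 9.05 (median 8.46), where sedentary rats ran from 8.57 to 9.24 (median 9.14). With 1 exception at 9.05 the trained rats lay below most sedentary ones, and the difference was -0.46 ± 0.12 (SE), 0.729-fold (limma, adjusted p = 0.00780). With the length score as a covariate it was -0.17 (adjusted p = 0.523). The same sedentary rats of 24 weeks enter its age difference. The median of later exercise rats lay above that of either group of 9 weeks. Dnaja2, a J-domain protein that hands clients to cytosolic Hsp70, ran from 13.01 to 13.22 (median 13.16) without exercise and from 12.62 to 13.16 (median 12.93) after later exercise. Its difference was -0.25 ± 0.07 (SE), 0.841-fold (limma, adjusted p = 0.0192). It was -0.0341 with the length score as a covariate (limma, adjusted p = 0.852) and -0.0601 with arrays scaled to a common median (adjusted p = 0.676).

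Among the BAG proteins, Bag1, which links Hsp70 to the proteasome, was higher and Bag5, which binds Hsp70 through several BAG domains, was lower. Bag1 ran from 11.56 to 11.80 (median 11.65) without exercise and from 11.70 to 12.08 (median 11.85) after later exercise, 0.19 ± 0.07 (SE), 1.14-fold (limma, adjusted p = 0.0455). Bag5 was 9.38 to 9.90 (median 9.74) and 9.30 to 9.76 (median 9.43), -0.25 ± 0.08 (SE), 0.840-fold (limma, adjusted p = 0.0351). Both pairs of groups overlapped. Bag3 was 13.24 to 13.58 (median 13.47) in later exercise rats, -0.20 ± 0.07 (SE) from sedentary, and did not pass (limma, adjusted p = 0.0583).

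Dnajc17, a nuclear J-domain protein tied to splicing, ran from 7.14 to 7.65 (median 7.40) without exercise and from 7.19 to 8.01 (median 7.74) after later exercise, 0.36 ± 0.11 (SE), 1.28-fold (limma, adjusted p = 0.0347). All but 1 of the later exercise rats lay above the highest sedentary rat. All 8 class B J-domain proteins had differences below 0 (median -0.14), though 5 of 8 did with arrays scaled to a common median and 3 of 8 with the length score as a covariate, and none passed. Among the small heat shock proteins none passed, with Hspb6 at 0.24 ± 0.11 (SE), Hspb2 at 0.22 ± 0.08 (SE) and Cryab, the crystallin that chaperones desmin, at 0.17 ± 0.10 (SE). Hspb3 lay at 0.11, and Hspb7, Hspb1 and Hspb8 lay below 0, at -0.12, -0.04 and -0.01. Cryab and Hspb6 had r = -0.677 and -0.488 with log2 array brightness, and Hspb2 had r = -0.58 with the length score. The part of either in these differences was not tested. Of the 6 CCT subunits, which fold actin and tubulin, 5 lay below 0 with a median of -0.13, and none passed.

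The 11 members called in later exercise kept their sign on all 3 chips, as 35 of all 64 members did, but they were called on these same arrays. None of the 11 passed with array brightness or with the length score as a covariate. The mean raw signal did not overlap between these groups (315 to 709 against 715 to 1307), so the brightness covariate cannot separate brightness from training. Over all probes the calls came to 46 higher and 98 lower with it. Hspe1 alone passed when only the later exercise and sedentary rats entered the fit, and 6 of the 11 passed without later exercise rats 3 and 5 (Hspe1, Hspa5, Hspa4l, Dnaja2, Hspa9 and Dnajc19). With the length score as a covariate Bag5 lay at -0.15, and with brightness Dnajc3 lay at -0.16 and Bag1 at 0.12. In the same comparison fibroblast markers summed to 15.01 to 15.33 against 15.19 to 15.68 in sedentary rats and macrophage markers (5 of 7 kept) to 11.78 to 12.39 against 11.53 to 12.13, and the part of these cell types was not tested.

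Of the 55 probes of regulators and partners, 2 were higher and 6 lower in later exercise than in sedentary rats, against 4.59% and 7.79% of all probes. Ubqln2 and Ubqln1, ubiquilins that carry clients to the proteasome, were 0.728-fold (limma, adjusted p = 4.34e-05) and 0.770-fold (adjusted p = 0.000975). Further partners of Hsp90 or Hsp70 were lower: Chordc1 at 0.798-fold, Sgtb at 0.802-fold and Itgb1bp2, or melusin, a muscle protein, at 0.851-fold. Trap1, the mitochondrial Hsp90, was 0.853-fold. Tbcc, a tubulin folding cofactor, was 1.35-fold and Hikeshi, which carries Hsp70 into the nucleus, 1.17-fold. The regulators and partners were not followed under the alternative fits in any comparison. In later against sedentary rats none of the 11 members called passed with array brightness or the length score as a covariate. Over all probes the calls came to 46 higher and 98 lower with brightness, and to 36 and 124 with the length score.

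Whether the response to exercise differed between life stages was tested with interaction terms. For later training at 24 weeks minus early training at 9 weeks, 0 members were higher and 0 lower, against 0.0183% and 0.128% of all probes. The smallest p was that of Dnajc3, -0.40 ± 0.12 (SE), which did not pass (limma, adjusted p = 0.158), and those of Bag5, Hspb2 and Hspa5 followed, at -0.31, 0.28 and -0.24. For early training at 24 weeks minus at 9 weeks, which is also the difference between the age changes of trained and sedentary rats, 0 members and 0% of all probes passed in either direction. The smallest unadjusted p of a member was 0.0896 (limma), for Bag5. Bag5, Hspb1, Hspb2 and Dnajc30 had the smallest p, with differences of -0.20, 0.19, 0.19 and 0.22.

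Members did not vary together as a set. Over the 36 rats, with group means removed, the median correlation of the 2016 pairs of members was 0.044, where that of all pairs of probes was 0.002. Pairs of members ran from -0.747 to 0.825 and all pairs of probes from -0.955 to 0.979. Single pairs picked from the upper end were tighter, with Cct5 and Hsp90aa1 at r = 0.825, Tcp1 and Cct5 at 0.811 and Hspd1 and Hspa4l at 0.767, whereas Hspe1 and Hspd1 stood at 0.0465. Chip moved with the first of these: rats on chip 1 deviated from their group mean by 0.44 for Hsp90aa1 and 0.34 for Cct5, against -0.22 and -0.27 on chip 2. With chip means removed as well, r was 0.498 for Cct5 and Hsp90aa1, 0.625 for Tcp1 and Cct5, 0.709 for Hspd1 and Hspa4l and -0.317 for Hspe1 and Hspd1. The length score was not removed, and Hspd1 and Hspa4l had r = 0.498 and 0.488 with it. Hsp90aa1, the stress-inducible cytosolic Hsp90, had the widest spread of any member, an SD within groups of 0.411 where the median member had 0.186, and its differences between groups, from -0.17 to 0.34, did not pass in any comparison.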

How the data were processed

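Hearts of 36 Control rats were measured on Illumina rat arrays. The labels name 3 chip batches, each holding rats of all 5 groups, which are called chips here; the methods describe 6 arrays a beadchip, so a batch may hold more than 1 physical chip. The deposited raw intensity is the scanner summary before normalization, and the deposited detection score, a fraction from 0 to 1, rises with signal, so it was taken to be 1 minus a detection p-value. The log2 values deposited by the authors were used as they are. Per the labels, processing used limma 3.24.15 in R 3.2.2, whereas the methods describe variance stabilization. The deposited log2 values lay within 0.0417 of normexp background correction, an offset of 16 and quantile normalization computed from the raw intensity, so they were read as that. The number of arrays limits the precision.

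Members, gene lists and tests were chosen with earlier results of these data known. A linear model of 5 group means was fitted in R 4.3.3 with limma 3.58.1 to 10956 probes, without chip or replicate as a term, and 8 contrasts were adjusted by the Benjamini-Hochberg method. Two-sided tests were used throughout. No gene had 2 kept probes among the members, and 13752 probe symbols were matched to current names by gene ID, with 0 changed. Genes named are 34 core chaperones with a kept probe of 43 listed, members past the test (up to 12 each way in a comparison), the 4 with the smallest p where none passed, and regulators past the test (up to 6 each way). Dnajb11, Dnajc10, Dnajc15 and Dnajc8, outside that rule, were named after their values were seen, as were Dnajb14, Dnajc14 and Dnajc25. Alternatives were raw intensity processed anew, omitting the background correction, scaling arrays to a common median, other detection filters, blocks for chip or replicate number, fitting the compared groups alone, omitting moderation, the methods' thresholds (fold below 0.75 or above 1.25 without adjustment), brightness or length score as a covariate, and doubted arrays left out. The fit was tested on simulated data. Promoters were matched by symbol to RefSeq tables of GRCr8.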

Additional observations from a re-analysis of the deposited data

Results flagged for a closer look

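In 210 groups of named members the highest or lowest rat was set against the others by Dixon's rule, and 7 stood apart, where chance gives about 1 in 20 groups. In sedentary rats of 24 weeks replicate 7 was the highest for Bag3 at 13.84 and the lowest for Dnajb4 at 9.71, where the nearest rats were at 13.64 and 10.33. Dnajb4 was also lowest in early exercise replicate 8 of 24 weeks, at 9.57 against 10.28. Hspa5 was highest in early exercise replicate 7 of 24 weeks, at 13.78 against 13.56, in the group that enters its comparison with later exercise. In later exercise rats Dnajc17 was lowest in replicate 6, at 7.19 against 7.66, and Dnajb5 in replicate 4, at 7.35 against 7.96. Hspb6 was lowest in sedentary replicate 5 of 9 weeks, at 14.16 against 14.82.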

How the results depend on the processing

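All 19 differences of members past the threshold kept their side and their direction with intensities processed anew, without background correction, with chip as a block, without moderation and with a replicate block. Same-numbered rats of compared groups did not all vary together (r from -0.338 to 0.397 over pairs), so the number was not taken as a pairing, and the replicate block gave 11 members in later against sedentary rats, 1 in later against early exercise rats, 5 and 4 for age in sedentary and early exercise rats, and 0 elsewhere. The 7 age differences stayed past the threshold in all 13 alternative fits (12 for Dnajc5b, which detection on all 36 arrays left out), the methods' thresholds not being among these.

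The counts of members in later against sedentary rats (11) came to 1 with only the groups compared, 0 with array brightness, 0 with the length score, 7 without later exercise rats 3 and 5, and 3 under the methods' thresholds. The count in later against early exercise rats (1) came to 0 with arrays scaled to a common median, only the groups compared, brightness, without rats 3 and 5, and under the methods' thresholds. For age in sedentary rats (4) it was 7 with chip as a block and 7 with the length score, and in early exercise rats (3) it was 7 with scaled arrays, 6 with chip as a block and 5 with brightness. Scaling to a common median put the median of all probes in later against sedentary rats at 0.18 on the log2 scale, with 3585 probes higher and 890 lower in place of 503 and 853. The same scaling put it at 0.109 in later against early exercise rats (62 higher and 42 lower, in place of 7 and 41) and for age in early exercise rats (908 and 257, in place of 477 and 403), and it gave 413 and 206 in place of 381 and 338 for age in sedentary rats and 563 and 111 in place of 2 and 14 for later minus early training. With brightness 46 probes were higher and 98 lower in later against sedentary rats, and with the length score 36 and 124.

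The median of all members in later against sedentary rats turned from -0.05 to 0.0155 with scaled arrays and to 0.0436 with the length score. The sign turned for Hspa9 with the length score, to 0.0121 in early exercise rats of 9 weeks and 0.0238 in later exercise rats, and for Hspd1 in later exercise rats with scaled arrays, to 0.0682. With scaled arrays the median of the members and Hspd1 still lay below the median of all probes, 0.18. Why these changed was not tested. Probes near background, such as Dnajc8 and Hspa4, which were detected on 18 and 22 arrays, limit what their small differences can show.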
